A study of Mus musculus with 16 samples.

Results

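The 5 genes of the mouse sortilin family (Sorcs1, Sorcs2, Sorcs3, Sort1 and Sorl1) were followed in hippocampal RNA from cbp+/- mice and their wild-type littermates. The mice were kept in standard cages or had environmental enrichment. By their labels the cbp+/- mice are heterozygous for a deficiency of the gene of CREB-binding protein, and the protein was not measured here. Each gene was read by 1 probe set carrying that gene's symbol alone, so 5 of 21780 such probe sets, or 5 of 19935 genes, are described. The family was chosen because Sorcs1 was lower on the arrays of the mutant mice. The genotype differences of these 5 genes are therefore given as a description, with no test, and only the housing differences and, apart from Sorcs1, the interaction were tested.

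The study used 16 Affymetrix Mouse Gene 1.0 ST arrays, a design whose probes are spread along each transcript. There were 3 arrays of cbp+/- mice and 3 of wild-type mice after 2 weeks of environmental enrichment (EE), and 5 of cbp+/- mice and 5 of wild-type mice from standard cages (SC). Enrichment was a large shared box with wheels, tubing and toys, and per the labels' protocols tissue was taken at least 16 h after the box had last been rearranged. All animals were 3-month-old females from an F2 of C57BL/6J and DBA. The cbp+/- mice were heterozygous for a deficiency of Crebbp, the gene of CREB-binding protein. Each array held equal amounts of RNA from the whole hippocampi of 4 animals, so the 16 arrays stand for 64 animals. The labels do not describe how the mutant allele was made or in which cells it is lost, and a pool does not show the spread between its animals. Arrays are named by genotype, housing and replicate number, as in CBP_EE_3.

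The sortilin family consists of type I membrane receptors that share a Vps10p domain, the ligand-binding region first described in a yeast vacuolar sorting receptor. They carry cargo between the trans-Golgi network, endosomes and the cell surface, and in neurons they handle neurotrophins and their precursors, the amyloid precursor protein and synaptic receptors. SORLA, the product of Sorl1, also holds repeats of the LDL receptor type, while SorCS1, SorCS2 and SorCS3 form a subgroup of closely related proteins.

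Signals are the deposited intensities, on a linear scale after RMA, and differences are on the log2 scale. Precision is limited by the 16 arrays. All 6 measured markers of hippocampal neurons (such as Snap25 and Camk2a) were brighter than the median probe set, as were 7 of 8 dentate granule cell and 5 of 5 CA1 markers. Choroid plexus markers, from a tissue beside the hippocampus, had a summed signal of 505 to 578 on CBP_EE and 453 to 1051 on WT_EE arrays, and of 442 to 7440 on CBP_SC and 423 to 2262 on WT_SC arrays, with the 7440 on CBP_SC_3. Cortex markers had a mean level (median deviation from each gene's mean, log2) of -0.11 on CBP_EE and 0.060 on WT_EE arrays. On CBP_SC and WT_SC arrays it was -0.067 and 0.048. In the same order of groups, striatum markers were at 0.013, 0.12, -0.093 and -0.023. Thalamus markers, higher in cbp+/-, were at -0.003, -0.047, 0.066 and -0.0026. The part of such tissue in the genotype differences below was not tested. Crebbp itself was higher, not lower, on the array labelled cbp+/- in 8 of 8 same-numbered genotype pairs, by 0.01 to 0.24, and by 0.12 on average. That mean had an SE of 0.035 and an adjusted p of 0.280 in the limma fit with the pairs as a block, and an SE of 0.081 and an adjusted p of 0.999 in the fit without it. The labels do not say whether its probes lie in the changed part of the gene, so this probe set does not check the genotype, and the direction of each genotype difference below rests on the labels. The arrays fell into 4 sets by clustering of their own signals: replicates 1 and 2 of all groups (set 1, 8 arrays), the SC_3 pair (set 2), the SC_4 pair (set 3), and the SC_5 and EE_3 pairs (set 4). The sources used here do not say what the sets stand for.

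Sorcs1 encodes a receptor that sorts neurexins, AMPA receptors and the amyloid precursor protein. Its signal was 118, 123 and 103 on CBP_EE_1 to CBP_EE_3, against 141, 141 and 119 on WT_EE_1 to WT_EE_3. In standard cages it was 118, 118, 124, 136 and 104 on CBP_SC_1 to CBP_SC_5, against 127, 139, 131, 147 and 122 on WT_SC_1 to WT_SC_5. The cbp+/- array was the lower one in every same-numbered pair, while the ranges of the genotypes overlapped in both housings. CBP_SC_4 stood above 3 wild-type SC arrays, CBP_SC_3 stood above WT_SC_5, and WT_EE_3 stood below CBP_EE_2.

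**Figure D1:**
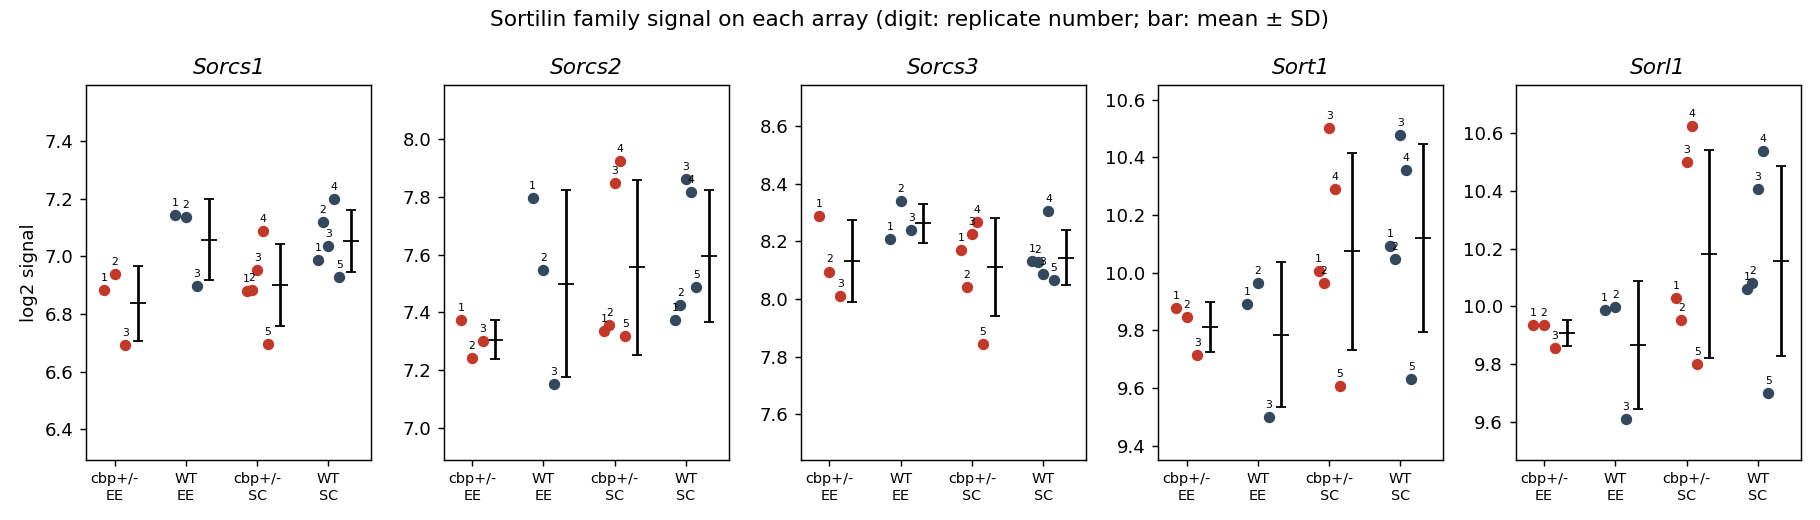
Log2 signal of the 5 sortilin family genes on each of 16 arrays, by group (EE, enrichment; SC, standard cage); digits are replicate numbers and bars are the mean ± SD of 3 (EE) or 5 (SC) arrays. Sorcs1 had means of 6.84 in CBP_EE, 7.06 in WT_EE, 6.90 in CBP_SC and 7.05 in WT_SC, while Sort1 and Sorl1 spread over nearly a log2 unit within the standard-cage groups.

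On the log2 scale Sorcs1 averaged 6.84 ± 0.13 in CBP_EE and 7.06 ± 0.14 in WT_EE (SD, n = 3 each), a difference of -0.22 (SE 0.10). It averaged 6.90 ± 0.14 in CBP_SC and 7.05 ± 0.11 in WT_SC (SD, n = 5 each), a difference of -0.15 (SE 0.079). Averaged over housings the difference was -0.19 (SE 0.065), or -12.1% on the linear scale. The order of the groups from low to high was CBP_EE, CBP_SC, WT_SC and WT_EE. The gap between CBP_SC and WT_SC was 1.19 times the SD within groups, and the other neighbours lay within 0.485 of that SD.

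Pair by pair, the Sorcs1 difference was -0.26, -0.20 and -0.20 in enrichment and -0.11, -0.24, -0.08, -0.11 and -0.23 in standard cages. It was thus negative in 8 of 8 pairs, with a mean of -0.18 and an SD of 0.069. Of all 21780 probe sets, 202 (0.927%) were lower in cbp+/- in 8 of 8 pairs and 222 (1.02%) were higher in 8 of 8. By the averaged genotype difference, 100 probe sets (0.459%) were at or below Sorcs1. Since Sorcs1 was picked for this difference, its place there is part of the choice. Within array sets the genotype difference in standard cages was -0.17 in set 1, -0.081 in set 2, -0.11 in set 3 and -0.23 in set 4. In enrichment it was -0.23 in set 1 and -0.20 in set 4.

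**Figure D2:**
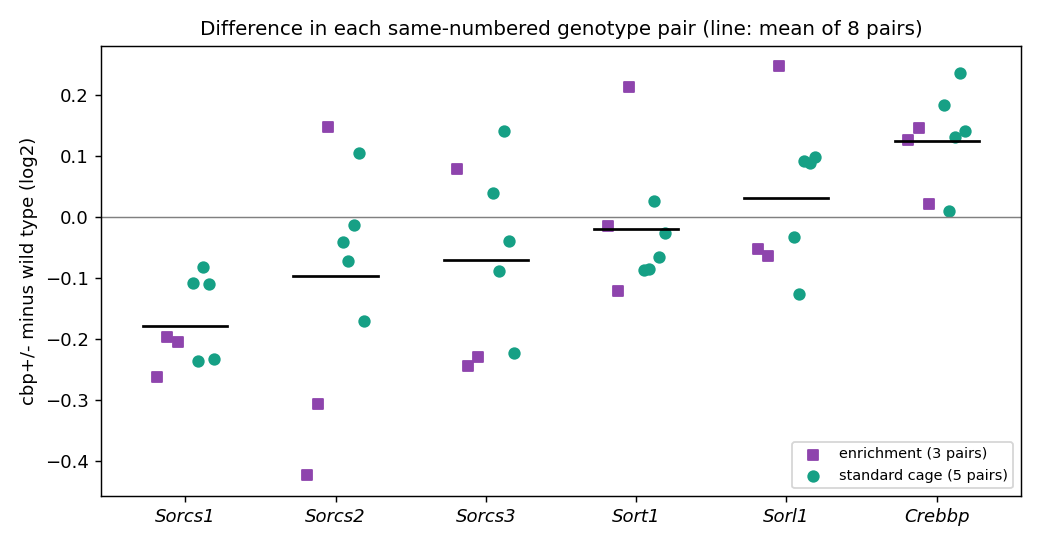
Difference in log2 signal, cbp+/- minus wild type, in each of 8 same-numbered pairs (squares, 3 enrichment pairs; circles, 5 standard-cage pairs) for the sortilin family and Crebbp; the line is the mean of the 8 pairs. All 8 points of Sorcs1 lie below 0, between -0.26 and -0.08, all 8 of Crebbp lie above 0, and the points of the other 4 genes fall on both sides.

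Sorcs1 did not pass the test for housing. The difference between enrichment and standard cages was -0.063 in cbp+/- (SE 0.092, 95% interval -0.26 to 0.13, adjusted p = 0.999) and 0.0048 in wild type (SE 0.092, interval -0.19 to 0.20, adjusted p = 0.983), from limma with Benjamini-Hochberg adjustment over all probe sets. No probe set passed an adjusted p of 0.05 in these housing comparisons or in their average (0%), and 2.82%, 17.8% and 19.1% had an unadjusted p under 0.05 in cbp+/-, in wild type and on average. None of the 5 family members was among these, nor among the 2.66% with an unadjusted p under 0.05 for the interaction, which was tested for the 4 others and which no probe set passed after adjustment (0%). The intervals leave room for a change of either sign. Its housing sign depended on single arrays and, on average over genotypes, was 0.032 when the array sets were fitted as a block. It was 0.012 without WT_EE_3, and in cbp+/- it was 0.011 without CBP_EE_3.

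The genes whose genotype pattern was most like that of Sorcs1 were Plxna2, Sox4, Git1, Col6a1 and Erf. Likeness was the correlation over the 16 arrays after the mean of each same-numbered genotype pair had been taken off, among 11980 probe sets at or above the median brightness. The arrays of a pair then mirror each other, so likeness rests on 8 pair differences, and a shared sign of these raises it. It was 0.978 for Plxna2, a semaphorin receptor of the plexin family, 0.962 for Sox4, a transcription factor of immature neurons, and 0.955 for Git1, a synaptic scaffold of Arf signalling. It was 0.952 for Col6a1, a chain of collagen VI, and 0.942 for Erf, a transcriptional repressor of the ETS family. Each was lower in cbp+/- in 8 of 8 pairs, by 0.144 on average for Plxna2 and 0.186 for Sox4. The arrays of a pair share their array set, 28 probe sets had a likeness above 0.9, and the measure picks genes for the same difference that Sorcs1 was chosen for. Of the family, Sorcs2 had a likeness of 0.607, Sorcs3 0.564, Sort1 0.153 and Sorl1 -0.176.

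Sorcs1 and Sorcs3 lie next to each other on chromosome 19, with 0 protein-coding genes between them in the RefSeq annotation of GRCm38.p6. Around them the averaged genotype difference was -0.12 for Cfap58 (SE 0.037, lower in 7 of 8 pairs) and -0.013 for Gsto2 (SE 0.058, 5 of 8) on the Sorcs3 side. On the Sorcs1 side it was 0.12 for Xpnpep1 (SE 0.12, 5 of 8 lower), -0.033 for Add3 (SE 0.082, 5 of 8) and 0.018 for Mxi1 (SE 0.047, 3 of 8). Gsto1, farther out on the Sorcs3 side, was at 0.25 (SE 0.14, 2 of 8 lower). These measured neighbours, chosen by position after the values were known, did not share the sign of Sorcs1 throughout.

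CREB-binding protein is recruited by CREB, a factor that binds the cyclic AMP response element, so the bases before the transcription start of the family members were read for that element. RefSeq sequences of GRCm38.p6 were matched for 3 of 5 members (Sorcs1, Sorcs3 and Sorl1), and Sorcs2 and Sort1 are named only. The letters searched on both strands were the full element TGACGTCA and its core, TGACG, which lies within it, in the 250 bases before each start. After these were read, the looser TGACNTCA was added. The full element was in 0 of the 4 windows of these genes (Sorl1 has a second start) and in 1.55% of 32851 windows of all genes. The core was in 17.8% of all windows and TGACNTCA in 7.49%. Sorcs1 held TGACNTCA once, beginning 88 bases before the start. Its window lies within the span of a longer annotated Sorcs1 gene model, so only the 30 bases around the match are printed (chr19:50678716-50678745, minus strand). Sorl1 held the core once, beginning 15 bases before its outer start (chr9:42124298-42124547, minus strand). Sorcs3 held none of the 3 (chr19:48205775-48206024, plus strand). These sequences are shown so that the match can be seen in its context, read 5′ to 3′ on the gene's strand with the matched letters in capitals.
Sorcs1: ctctccgcccgTGACTTCAgttcggctcca
Sorl1: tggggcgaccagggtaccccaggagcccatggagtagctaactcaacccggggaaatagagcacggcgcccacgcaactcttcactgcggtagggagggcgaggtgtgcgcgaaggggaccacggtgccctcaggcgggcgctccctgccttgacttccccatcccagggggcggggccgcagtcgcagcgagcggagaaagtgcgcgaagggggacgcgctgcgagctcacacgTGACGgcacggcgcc
Sorcs3: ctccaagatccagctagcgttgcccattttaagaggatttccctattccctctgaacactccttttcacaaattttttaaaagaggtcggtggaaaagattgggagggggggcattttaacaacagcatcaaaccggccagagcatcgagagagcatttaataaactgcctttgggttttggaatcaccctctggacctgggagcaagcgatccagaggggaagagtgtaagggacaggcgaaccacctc
The share of G and C was 79.6% in the Sorcs1 window, 69.6% in the outer Sorl1 window and 48.4% in the Sorcs3 window, against a median of 52.4% over all windows. A match is a string of letters and shows no binding, and the absence of one in these windows says nothing of the factor.

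Sorcs2 encodes a receptor that pairs with the neurotrophin receptor p75 in responses to proBDNF. Its signal was 166, 151 and 158 on CBP_EE_1 to CBP_EE_3, against 222, 187 and 142 on WT_EE_1 to WT_EE_3. In standard cages it was 161, 164, 230, 243 and 160 on CBP_SC_1 to CBP_SC_5, against 166, 172, 233, 226 and 179 on WT_SC_1 to WT_SC_5. The SC_3 and SC_4 arrays of both genotypes were high, and the wild-type enrichment arrays spanned nearly the whole range.

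Sorcs2 was at 7.30 ± 0.067 in CBP_EE and 7.50 ± 0.32 in WT_EE (SD, n = 3 each), and at 7.56 ± 0.30 in CBP_SC and 7.59 ± 0.23 in WT_SC (n = 5 each). The genotype difference was -0.19 (SE 0.20) in enrichment and -0.038 (SE 0.15) in standard cages, lower in 2 of 3 and 4 of 5 pairs. The largest pair differences were -0.42 and -0.31 in EE_1 and EE_2, while EE_3 was at 0.15. Single arrays moved these values: the enrichment difference was -0.045 without WT_EE_1 and -0.37 without WT_EE_3, and the standard-cage difference was -0.13 without CBP_SC_4 and 0.029 without WT_SC_3. The neighbouring groups lay within 0.751 of the SD within groups in the order CBP_EE, WT_EE, CBP_SC and WT_SC.

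Enrichment against standard cages gave -0.25 in cbp+/- (SE 0.18, 95% interval -0.63 to 0.12, adjusted p = 0.999) and -0.095 in wild type (SE 0.18, interval -0.47 to 0.28, adjusted p = 0.803) for Sorcs2 with limma. The direction in wild type turned with the array set. Within set 1 it was 0.27 (adjusted p = 0.0447 in a fit of those 8 arrays, where 29.9% of all probe sets passed), with 222 and 187 on the enrichment arrays, against 166 and 172 on the standard-cage arrays. In set 4, with 1 array each, it was -0.34. Within set 1 the cbp+/- difference was -0.038 (adjusted p = 0.916). The interaction over all arrays was -0.16 (SE 0.25, adjusted p = 1.00), so a housing effect that depends on genotype was not shown for Sorcs2.

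Sorcs3 encodes a postsynaptic receptor of glutamatergic neurons, linked to long-term depression. Its signal was 312, 273 and 258 on CBP_EE_1 to CBP_EE_3, against 296, 324 and 302 on WT_EE_1 to WT_EE_3. In standard cages it was 288, 264, 300, 308 and 230 on CBP_SC_1 to CBP_SC_5, against 280.2, 280.0, 272, 316 and 268 on WT_SC_1 to WT_SC_5. The groups overlapped in each comparison. The lowest of the 16 arrays was CBP_SC_5. For all 5 family genes the groups overlapped in both housing comparisons, where 1.25% of all probe sets were lower and 1.64% higher on every enrichment array in cbp+/-, and 2.00% lower and 9.16% higher in wild type. They also overlapped between genotypes, where 6.85% of all probe sets were lower and 3.53% higher on every cbp+/- array in enrichment, and 0.0872% lower and 0.174% higher in standard cages.

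The Sorcs3 genotype difference was -0.13 (SE 0.10) in enrichment, from 8.13 ± 0.14 in CBP_EE and 8.26 ± 0.068 in WT_EE (SD, n = 3 each). It was -0.033 (SE 0.079) in standard cages, from 8.11 ± 0.17 in CBP_SC and 8.14 ± 0.095 in WT_SC (n = 5 each). The cbp+/- array was lower in 2 of 3 and 3 of 5 pairs. Within sets the standard-cage difference was -0.024, 0.14, -0.039 and -0.22 in sets 1 to 4, so its sign was not stable. It was 0.033 without CBP_SC_5 and -0.072 without CBP_SC_4, and the enrichment difference was -0.071 without CBP_EE_3 and -0.21 without CBP_EE_1. Enrichment gave 0.021 in cbp+/- (SE 0.092, interval -0.18 to 0.22, adjusted p = 0.999) and 0.12 in wild type (SE 0.092, interval -0.08 to 0.32, adjusted p = 0.512, limma). Within both array sets that hold enrichment arrays, Sorcs3 was higher in enrichment: by 0.085 and 0.17 in cbp+/- and by 0.14 and 0.17 in wild type, for sets 1 and 4. With the array sets fitted as a block in limma, the averaged housing difference was 0.13 (SE 0.052, adjusted p = 0.166). In wild type it was 0.18 (SE 0.070, adjusted p = 0.139) in that fit. A limma fit of set 1 alone gave 0.11 averaged (adjusted p = 0.163), so neither setting passed. With arrays weighted by their fit to the group means, the averaged housing difference was 0.17 (adjusted p = 0.00922), a setting in which 6167 of 21780 probe sets passed. The interaction was -0.098 (SE 0.13, adjusted p = 1.00).

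Sort1 and Sorl1 varied far more between array sets than between genotypes or housings. Sort1 encodes sortilin, which binds neurotrophin precursors, neurotensin and progranulin and directs them to endosomes and lysosomes. Sorl1 encodes SORLA, which retains the amyloid precursor protein in the Golgi and returns it from endosomes.

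Sort1 had a signal of 941, 920 and 839 on CBP_EE_1 to CBP_EE_3, against 950, 1000 and 724 on WT_EE_1 to WT_EE_3. In standard cages it was 1029, 999, 1451, 1253 and 779 on CBP_SC_1 to CBP_SC_5, against 1092, 1059, 1424, 1310 and 793 on WT_SC_1 to WT_SC_5. Sorl1 was at 979, 979 and 927 on CBP_EE_1 to CBP_EE_3, against 1014, 1023 and 781 on WT_EE_1 to WT_EE_3. In standard cages it was at 1044, 991, 1447, 1581 and 890 on CBP_SC_1 to CBP_SC_5, against 1067, 1082, 1357, 1487 and 832 on WT_SC_1 to WT_SC_5. In both genes and both genotypes the SC_3 and SC_4 arrays were the highest of all. The SC_5 arrays and WT_EE_3 were the lowest 3 for both genes, and CBP_EE_3 came next.

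**Figure D3:**
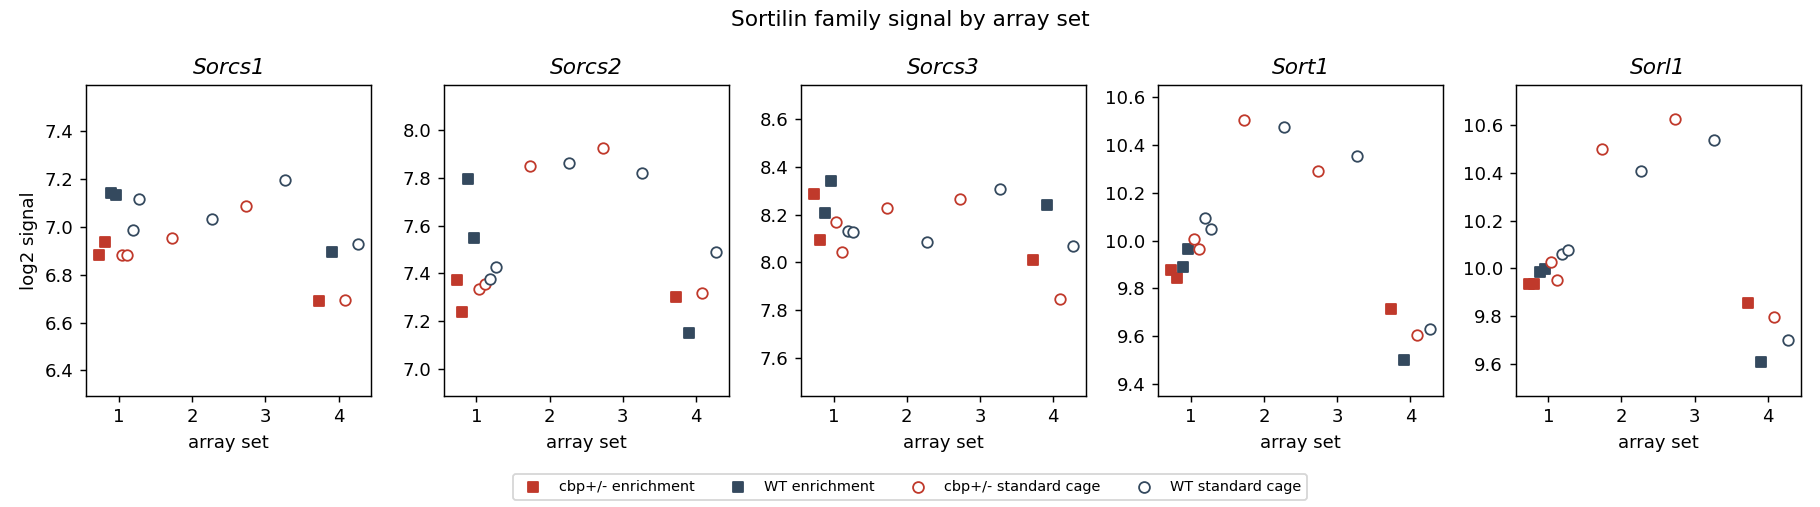
Log2 signal of each sortilin family gene by array set (set 1, 8 arrays; sets 2 and 3, 2 arrays each; set 4, 4 arrays), with filled squares for enrichment and open circles for standard cages, red for cbp+/- and dark blue for wild type. Sort1 ran from 920 to 1092 in set 1, 1424 to 1451 in set 2, 1253 to 1310 in set 3 and 724 to 839 in set 4 on the linear scale, with no overlap between sets, and Sorl1 did not overlap between sets either.

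Of the variance of log2 signal over the 16 arrays, 94.3% lay between array sets for Sort1 and 95.2% for Sorl1. The share was 72.5% for Sorcs2, 53.5% for Sorcs1 and 36.1% for Sorcs3, and its median over all tested probe sets was 38.9%. The sets were clustered from the same arrays, so part of these shares is built in. The share between genotypes was 38.0% for Sorcs1, the gene picked for it, 0.108% for Sort1 and 0.298% for Sorl1, with a median of 2.39%. The share between housings was 24.4% for Sort1 and 21.9% for Sorl1, with a median of 9.21%, and it overlaps with the share between sets because sets 2 and 3 hold standard-cage arrays only. The 6 hippocampal neuron markers moved with the array sets too, in the same order as Sort1, while Sorl1 was highest in set 3. The 6 neuronal markers had a level, as median deviation from each gene's mean, of 0.28 in set 2, 0.19 in set 3, -0.023 in set 1 and -0.21 in set 4, and a summed signal of 17597 to 18343 in set 2 and 11789 to 13740 in set 4. The 5 measured oligodendrocyte markers were at 0.42, 0.075, -0.063 and -0.13 in those sets. Not all neuronal lists had this order: CA1 markers did, while dentate granule cell markers were highest in set 3. GABAergic interneuron markers were at 0.13, -0.090, -0.011 and 0.083 in sets 2, 3, 1 and 4. CA3 and CA2 pyramidal cell markers were at -0.0031, 0.022, -0.01 and 0.034 there. The part of any of these cell types in the Sort1 and Sorl1 values was not tested. In such bulk RNA fewer cells of a type and less RNA per cell cannot be told apart.

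The genotypes were close for both genes. Sort1 was at 9.81 ± 0.087 in CBP_EE and 9.79 ± 0.25 in WT_EE, and at 10.07 ± 0.34 in CBP_SC and 10.12 ± 0.33 in WT_SC (SD, n = 3 and n = 5 per group). The difference was 0.027 (SE 0.22) in enrichment and -0.047 (SE 0.17) in standard cages, lower in 6 of 8 pairs. Sorl1 was at 9.91 ± 0.045 in CBP_EE and 9.86 ± 0.22 in WT_EE, and at 10.18 ± 0.36 in CBP_SC and 10.16 ± 0.33 in WT_SC. The difference was 0.044 (SE 0.23) in enrichment and 0.025 (SE 0.17) in standard cages, lower in 4 of 8 pairs. These SEs are from the fit without a block and include shifts that the arrays of a set share. The SD of the 8 pair differences was 0.105 for Sort1 and 0.121 for Sorl1. Both genes had their widest pair difference in EE_3, at 0.21 for Sort1 and 0.25 for Sorl1. With single arrays left out, the sign of each of these differences turned: without WT_EE_3 the enrichment difference was -0.12 for Sort1 and -0.084 for Sorl1. In standard cages it was 0.070 for Sort1 without CBP_SC_5 and -0.090 for Sorl1 without WT_SC_5.

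Enrichment went with lower mean signals of Sort1 and Sorl1 that did not pass the threshold and were smaller within array sets. The averaged housing difference of Sort1 was -0.30 (SE 0.14, 95% interval -0.60 to 0.0027, adjusted p = 0.264, limma). That of Sorl1 was -0.28 (SE 0.14, interval -0.59 to 0.023, adjusted p = 0.295). In cbp+/- they were -0.26 (SE 0.20) and -0.27 (SE 0.20), each with an adjusted p of 0.999, and in wild type -0.34 (adjusted p = 0.389) and -0.29 (adjusted p = 0.461), with an SE of 0.20 each. The high SC_3 and SC_4 arrays have no enrichment counterpart in their sets. When the sets were fitted as a block, the averaged difference was -0.093 for Sort1 (SE 0.043, adjusted p = 0.216) and -0.049 for Sorl1 (SE 0.046, adjusted p = 0.514), where 0.0689% of all probe sets passed.

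Within set 1, Sort1 was lower on all 4 enrichment arrays than on each standard-cage array of their genotype. It had 941 and 920 on the CBP_EE arrays, against 1029 and 999 on the CBP_SC arrays, and 950 and 1000 on the WT_EE arrays, against 1092 and 1059 on the WT_SC arrays. The averaged difference there was -0.13 (SE 0.040, adjusted p = 0.0411), in a fit where 25.1% of all probe sets passed. In set 4, with 1 array per group, the Sort1 difference was 0.11 in cbp+/- and -0.13 in wild type. For Sorl1 the averaged difference in set 1 was -0.066 (SE 0.038, adjusted p = 0.216), and in set 4 it was 0.058 in cbp+/- and -0.091 in wild type. The interaction over all arrays was 0.073 for Sort1 (SE 0.28) and 0.020 for Sorl1 (SE 0.29), each with an adjusted p of 1.00.

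**Figure D4:**
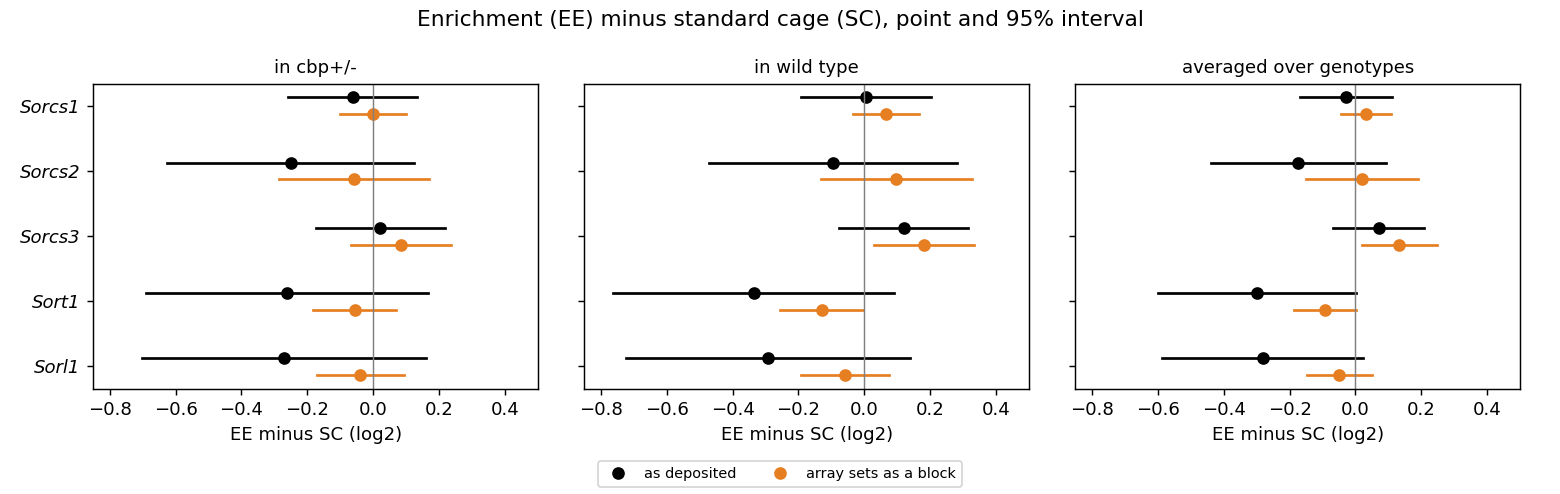
Enrichment minus standard cage (log2) for each sortilin family gene in cbp+/-, in wild type and averaged over genotypes, as points with 95% intervals, from the deposited values (black) and with a block for array sets (orange). The averaged difference of Sort1 was -0.30 without the block and -0.093 with it, that of Sorl1 -0.28 and -0.049, and that of Sorcs2 -0.17 and 0.019.

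The genes that work with these receptors were read from 6 lists of known partners. Of 77 genes, 70 had a probe set, 0 passed the threshold in any housing or genotype comparison, and 10 (averaged housing effect), 7 (wild type) and 2 (cbp+/-) had an unadjusted p under 0.05. Of all probe sets, 19.1%, 17.8% and 2.82% did so in those comparisons, so the partner genes did not stand above the general share there. The averaged housing difference had a median of -0.086 over the 70 genes, 51 of them lower, against a median of 0.021 over all tested probe sets. The share of all probe sets that were lower was not counted. Partner genes were read by their brightest probe set, so these medians are not of like probe sets. The spread of log2 signal over probe sets (interquartile range) was 2.297 to 2.552 on enrichment and 2.506 to 2.647 on standard-cage arrays. Its part in the list values was not tested.

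Among 12 ligands and cargo proteins, 8 were higher and 4 lower in enrichment on average (median 0.061). Bdnf, the neurotrophin whose precursor binds sortilin and SorCS2, was at 7.21 ± 0.029 in CBP_EE and 6.75 ± 0.20 in CBP_SC, and at 7.21 ± 0.10 in WT_EE and 6.87 ± 0.14 in WT_SC (SD, n = 3 and n = 5). Its averaged difference was 0.40 (SE 0.074, adjusted p = 0.114), and it was 0.35 within set 1 and 0.25 within set 4. Apoa5, an apolipoprotein that binds sortilin family receptors, was at 0.19 (SE 0.084, adjusted p = 0.244), or 0.26 within set 1 and 0.028 within set 4. Among 8 co-receptors, 3 were higher and 5 lower (median -0.016). Ntrk2, the BDNF receptor, was at -0.28 (SE 0.12, adjusted p = 0.240), or -0.11 within set 1 and -0.092 within set 4, and Lifr, the leukemia inhibitory factor receptor, at -0.13 (SE 0.056, adjusted p = 0.228), or -0.15 and -0.11 within those sets.

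All 9 measured synaptic cargo and partner genes had lower means in enrichment on average (median -0.12). Grin2a, an NMDA receptor subunit, was at -0.26 (SE 0.14, adjusted p = 0.302) and Gria1, an AMPA receptor subunit, at -0.23 (SE 0.12, adjusted p = 0.308). Within set 1 they were at -0.14 and -0.24, and within set 4 at 0.013 and -0.14. Of 21 genes listed for retromer, GGA and clathrin adaptors and related receptor traffic, 4 were higher and 17 lower (median -0.10). Snx27, a sorting nexin of the retromer pathway, was at -0.21 (SE 0.072, adjusted p = 0.178). Its difference was -0.27 in set 1 and 0.079 in set 4. Pacs1, an adaptor of the trans-Golgi network, was at -0.30 (SE 0.12, adjusted p = 0.207), with the smaller values of -0.095 in set 1 and -0.11 in set 4.

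Of 11 genes for propeptide-cleaving and shedding proteases and gamma-secretase subunits, 3 were higher and 8 lower (median -0.040). Bace1, the beta-secretase, was at -0.32 (SE 0.16, adjusted p = 0.283) and Aph1a, a gamma-secretase subunit, at -0.20 (SE 0.090, adjusted p = 0.247). Within sets 1 and 4, Bace1 was at -0.063 and -0.085, and Aph1a at 0.015 and -0.18. Of 9 receptors of the LDL receptor family, to which SORLA is related, 1 was higher and 8 lower (median -0.15). Lrp6, a Wnt co-receptor, was at -0.22 (SE 0.074, adjusted p = 0.173) and Lrp1, a large endocytic receptor, at -0.42 (SE 0.18, adjusted p = 0.224). Within sets 1 and 4, Lrp6 was at -0.17 and -0.045, and Lrp1 at -0.070 and -0.18.

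Between genotypes, 43 of the 70 partner genes were higher and 27 lower in cbp+/- on average (median 0.016, against -0.0095 over all tested probe sets). An unadjusted p under 0.05 was reached by 1 of them on average (3.91% of all probe sets), by 4 in enrichment (5.23%) and by 0 in standard cages (0.987%). In 8 of 8 pairs, 2 were lower (2.86%, against 0.927% of all probe sets) and 1 was higher (1.43%, against 1.02%). Named after their values were seen, the lower ones were Grin2a (-0.072, SE 0.14) and Lrp2, and the higher one was Lrp10.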

How the data were processed

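Per the labels' protocols, biotin-labelled hippocampal RNA pooled from 4 animals was hybridised to each of 16 arrays and processed in GeneSpring GX. RMA is named per the submitters' processing notes, with versions, the authors' test and the genome build not given in the sources used here. Judged from its range, the deposited table holds linear intensities, and whether they were centred on a baseline is unknown. The pools were independent biological replicates per the labels' protocols, so p-values measure the spread between pools. The main fit has no block, so this spread includes shifts shared by the arrays of a set. The SEs of the members' genotype differences are from the same fit and include them too. For the averaged housing difference of Sort1 the SE was 0.14 without the set block and 0.043 with it. Array medians were 76.7 to 85.5 over 28815 probe sets. Of these, 21780 had 1 symbol in the platform's probe table and were tested, 1605 had several and 5430 none here.

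Log2 of the deposited intensity was analysed with limma 3.58.1 in R 4.3.3. lmFit fitted 4 group means to all 16 arrays (12 residual degrees of freedom), with eBayes and Benjamini-Hochberg adjustment over 21780 probe sets. The script was tested on simulated data. Same-numbered cbp+/- and wild-type arrays deviated together (r 0.257 to 0.767 in 8 of 8 pairs over all tested probe sets). Replicates 1 and 2 were not told apart by this: CBP_EE_2 had an r of 0.663 with WT_EE_1 and 0.306 with WT_EE_2. CBP_SC_1 had 0.621 with WT_SC_2 and 0.593 with WT_SC_1. The pairing of replicates 1 and 2 thus rests on their numbers alone. Between housings, same-numbered arrays had an r of -0.394 to 0.365, so the numbers were not shown to pair the housings. Array sets came from Ward clustering. The text names the 5 members, Crebbp, the 5 genes most like Sorcs1 and, per partner list, genes past the threshold or otherwise the 2 with the smallest p for averaged housing. A partner gene with several probe sets was read by its brightest. Members and lists were chosen with earlier results of these data known. Alternatives were quantile normalization, leaving out dim probe sets, array weights, array-set and replicate blocks, single sets and each array left out.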

Additional observations from a re-analysis of the deposited data

Results flagged for a closer look

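Sorcs3 on WT_SC_4 stood away from the other 4 wild-type standard-cage arrays: its gap to the nearest of them was 0.734 of the whole range of the group on the log2 scale, with a signal of 316 against 268 to 280 on the others. Groups of 5 were examined for 6 genes, and chance alone marks about 5% of such groups. CBP_SC_4, the same-numbered cbp+/- array, had 308.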

How the results depend on the processing

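The Sorcs1 genotype difference kept its sign under each alternative: it was -0.25 to -0.22 in enrichment and -0.17 to -0.15 in standard cages over 6 alternatives, and -0.30 to -0.15 and -0.20 to -0.10 with each array left out in turn, with the smallest sizes without CBP_EE_3 and without CBP_SC_5. Among the 6, leaving out dim probe sets, the Ward set block and a block of same-numbered genotype pairs cannot move this difference by construction. Sorcs1 stays at -0.19 on average in each, so they say nothing of its stability. With the pair block the interaction had an adjusted p of 0.787 to 0.972 for the other 4 genes. Of the members, array weights called Sorcs3 (0.17 averaged, adjusted p = 0.00922, and 0.19 in wild type, adjusted p = 0.0454), and set 1 alone called Sort1 (-0.13 averaged) and Sorcs2 (0.27 in wild type, adjusted p = 0.0447).

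Signs of housing differences turned in several settings. For Sorcs1 the averaged difference was 0.025 with array weights, 0.032 with the Ward set block and 0.057 within set 1, and in cbp+/- it was 0.029 within set 1. For Sorcs2 the averaged difference was 0.019 with the Ward block and 0.12 within set 1. In wild type it was 0.060 with array weights, 0.12 with average-linkage sets as a block, 0.097 with the Ward block, and 0.13 and 0.27 within set 1 of each clustering. The interaction of Sorl1 was -0.067 with quantile normalization, -0.0099 with array weights and -0.035 within average-linkage set 1, and that of Sort1 was -0.0093 and -0.0073 in the first 2 of these. Within single sets of 1 pair of arrays, values moved by over 1 SD for Sorcs2 in set 4 (genotype in enrichment 0.15, interaction 0.32), for Sorcs3 (genotype 0.14 in set 2 and -0.22 in SC_5, -0.23 averaged in set 4, housing in cbp+/- 0.17) and for Sort1 and Sorl1 (housing in cbp+/- 0.11 and 0.058 in set 4). The cause was not tested.

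With 1 array left out, the housing difference of Sorcs1 ran from -0.055 to 0.012 averaged, -0.11 to 0.011 in cbp+/- and -0.038 to 0.086 in wild type. That of Sorcs2 in wild type ran from -0.24 to 0.077, turning without WT_EE_3, and that of Sorcs3 in cbp+/- from -0.057 to 0.081. The interaction ran from -0.11 to 0.13 for Sorl1 and -0.0695 to 0.20 for Sort1.

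Array weights called 152 probe sets for genotype averaged, 2474 for genotype in enrichment, 6167 for housing averaged, 1039 in cbp+/-, 5254 in wild type and 429 for the interaction, against 0 in each. Of the 70 measured partner genes they called 11 (genotype in enrichment), 13, 2, 12 (housing averaged, in cbp+/- and in wild type) and 1 (interaction). For housing and the interaction these are smaller shares than those of the counts above among all 21780 probe sets. For genotype in enrichment the share is larger, and this was not tested. With 1 array left out, 0 to 230 probe sets passed for averaged housing, the most without CBP_EE_3, and 0 to 19 in wild type (3 without CBP_SC_3, 7 without CBP_EE_2 and 19 without CBP_EE_3). The array sets rest on the clustering chosen: Ward clustering was added after seeing the data, because average linkage left WT_EE_3 in a set of its own.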
